A study of Mus musculus with 3 samples.

Results

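Smooth muscle cells (SMCs) of the aortic wall set their tone through potassium and calcium channels, and 10 genes of this machinery are described here across 3 single-cell libraries. They are *Kcnj15*, *Kcnj8*, *Abcc9*, *Kcnma1*, *Kcnmb1*, *Cacna1c*, *Itpr1*, *Ryr2*, *Pln* and *Atp2a2*, 10 of the 32285 genes in the feature list. *Kcnj15* was chosen because earlier work on these libraries had shown it to be much lower in mutant smooth muscle, so its level in mutant over wild-type SMCs is given as a description. The levels were read in 14418 SMC-gated barcodes among 26158 barcodes that passed the filters, and beside them in fibroblasts, endothelial cells (ECs) and macrophages.

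Opening of potassium channels moves the SMC membrane away from the threshold of the voltage-gated calcium channel and relaxes the cell. Kir4.2 (*Kcnj15*) belongs to the inward rectifiers, and Kir6.1 (*Kcnj8*) forms the vascular ATP-sensitive (KATP) channel together with the sulfonylurea receptor SUR2 (*Abcc9*). The BK channel, with its pore *Kcnma1* and its smooth muscle subunit *Kcnmb1*, opens on calcium. Calcium enters through Cav1.2 (*Cacna1c*), leaves the sarcoplasmic reticulum through the IP3 receptor (*Itpr1*) and the ryanodine receptor (*Ryr2*), and is pumped back by SERCA2 (*Atp2a2*), which phospholamban (*Pln*) restrains.

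Each library held the pooled ascending aortas of several male C57BL/6J mice at P45. The WT library came from wild-type mice, the mgR library from *Fbn1*mgR/mgR mice, which carry a hypomorphic fibrillin-1 allele in every cell and serve as a model of Marfan syndrome, and the mgR-LOS library from *Fbn1*mgR/mgR mice given losartan, an angiotensin II type 1 receptor blocker, at 0.6 g/L in drinking water from P16. Whether vehicle was given to the mgR mice is not stated in the labels. With 1 library per group variation among mice was not measurable, no test between libraries was possible, and all intervals cover counting error only.

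The libraries held 7858 to 14663 barcodes and 83338726 to 123956320 unique molecular identifiers (UMIs). A barcode was SMC-gated when *Acta2*, *Myh11*, *Tagln*, *Cnn1*, *Myl9* and *Tpm2*, genes of the contractile apparatus, made up at least 2% of its UMIs and no panel of another cell class passed its own limit. This gave 3625 WT, 2995 mgR and 7798 mgR-LOS barcodes, which were 67.6%, 37.1% and 61.3% of the barcodes that passed. A panel share of 1% to 2%, just under the limit, was seen in 53, 450 and 345 barcodes, and the median panel share of gated barcodes was 5.20%, 5.04% and 4.93%. The median SMC-gated barcode held 14389, 15241 and 8543.5 UMIs. Per the file headers the losartan library was also counted with another CellRanger version, although the processing notes name the same version for all. Treatment, depth and any difference in software cannot be told apart there. Libraries shared 11 to 34 barcodes in pairs. *Fbn1*, the mutated gene, stood at 249 CPM (counts scaled to a total of 1000000 UMIs) in WT SMCs (95% Poisson interval 245 to 254), at 77.2 in mgR and at 67.4 in mgR-LOS, in the direction that the labels give.

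Sequence before the start sites is shown for 3 genes because *Kcnj15* had the largest difference between mgR and WT SMCs among the 10 and because *Kcnj8* and *Abcc9*, which encode partners of 1 channel, lie side by side and differed in the same direction. *Kcnj8* (ENSMUSG00000030247, chromosome 6, 142564837 to 142571614) and *Abcc9* (ENSMUSG00000030249, chromosome 6, 142587862 to 142702315) are both on the minus strand of GRCm38 and 16247 bp apart. *Kcnj15* (ENSMUSG00000062609) is on the plus strand of chromosome 16, from 95257558 to 95300260. The bases before the RefSeq start and outside the annotated gene are given 5′ to 3′ on the gene's strand in GRCm38.p6, and capitals mark the letters CATTCC, the motif of TEAD factors, on either strand.
Kcnj15 at chr16:95257308-95257557: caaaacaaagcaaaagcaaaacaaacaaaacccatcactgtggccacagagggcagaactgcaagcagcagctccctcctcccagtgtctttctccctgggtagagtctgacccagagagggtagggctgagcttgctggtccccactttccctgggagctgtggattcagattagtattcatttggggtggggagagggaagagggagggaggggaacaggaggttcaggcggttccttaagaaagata
Kcnj8 at chr6:142571615-142571864: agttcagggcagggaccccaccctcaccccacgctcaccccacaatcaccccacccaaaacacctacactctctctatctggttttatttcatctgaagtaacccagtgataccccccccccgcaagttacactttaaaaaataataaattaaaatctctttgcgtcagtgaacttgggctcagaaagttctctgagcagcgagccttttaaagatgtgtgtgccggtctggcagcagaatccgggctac
Abcc9 at chr6:142702316-142702524: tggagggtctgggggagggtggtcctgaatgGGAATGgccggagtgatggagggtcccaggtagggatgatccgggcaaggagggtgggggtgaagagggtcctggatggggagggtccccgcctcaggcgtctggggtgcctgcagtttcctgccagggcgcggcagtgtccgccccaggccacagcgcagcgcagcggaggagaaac
RefSeq listed a start for 8 of the 10 genes. None of their 10 windows of up to 250 bases held a CArG box, the site of serum response factor, against 1.47% of 32851 windows, and the window of *Abcc9* was the only one with CATTCC, in reverse as GGAATG, against 12.6%.

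*Kcnj15* was at 118.5 CPM in WT SMCs (115.6 to 121.5, 6101 UMIs), at 12.95 CPM in mgR (11.93 to 14.04, 594 UMIs) and at 9.23 CPM in mgR-LOS (8.53 to 9.97, 647 UMIs). Both mutant libraries lay far below WT, and the losartan library lay slightly below mgR. In mgR over WT the ratio was 0.109 (exact binomial interval 0.1003 to 0.119), which is 9.15-fold lower, and 5 of the 9143 genes with an average of at least 5 CPM had a lower ratio. The ratio of mgR-LOS over mgR was 0.713 (0.637 to 0.798), not past 1.5-fold, and ranged from 0.678 to 0.945 under 15 other settings. After each barcode was thinned to 2000 UMIs, 19.5% of 3551 WT barcodes carried a *Kcnj15* UMI (Clopper-Pearson interval 18.2% to 20.8%), against 1.80% of 2944 mgR (1.35% to 2.35%) and 1.503% of 7718 mgR-LOS barcodes (1.24% to 1.80%). Thinning left out 74, 51 and 80 shallower barcodes, and without it the shares were 63.7%, 7.35% and 4.92%. Macrophages, which served as the measure of free RNA, carried it in 0 of 95 barcodes in WT (upper limit 3.81%) and in 0.471% of 1062 in mgR. In mgR-LOS they carried it in 0 of 614 (upper limit 0.599%). These shares are at the same thinned depth, with median depths before thinning of 9091, 8333 and 6648.5 UMIs. The mgR share in SMCs was above that of macrophages, with counting intervals that did not overlap (macrophages 0.153% to 1.10%). The part of free RNA in the SMC share was not tested.

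**Figure D1:**
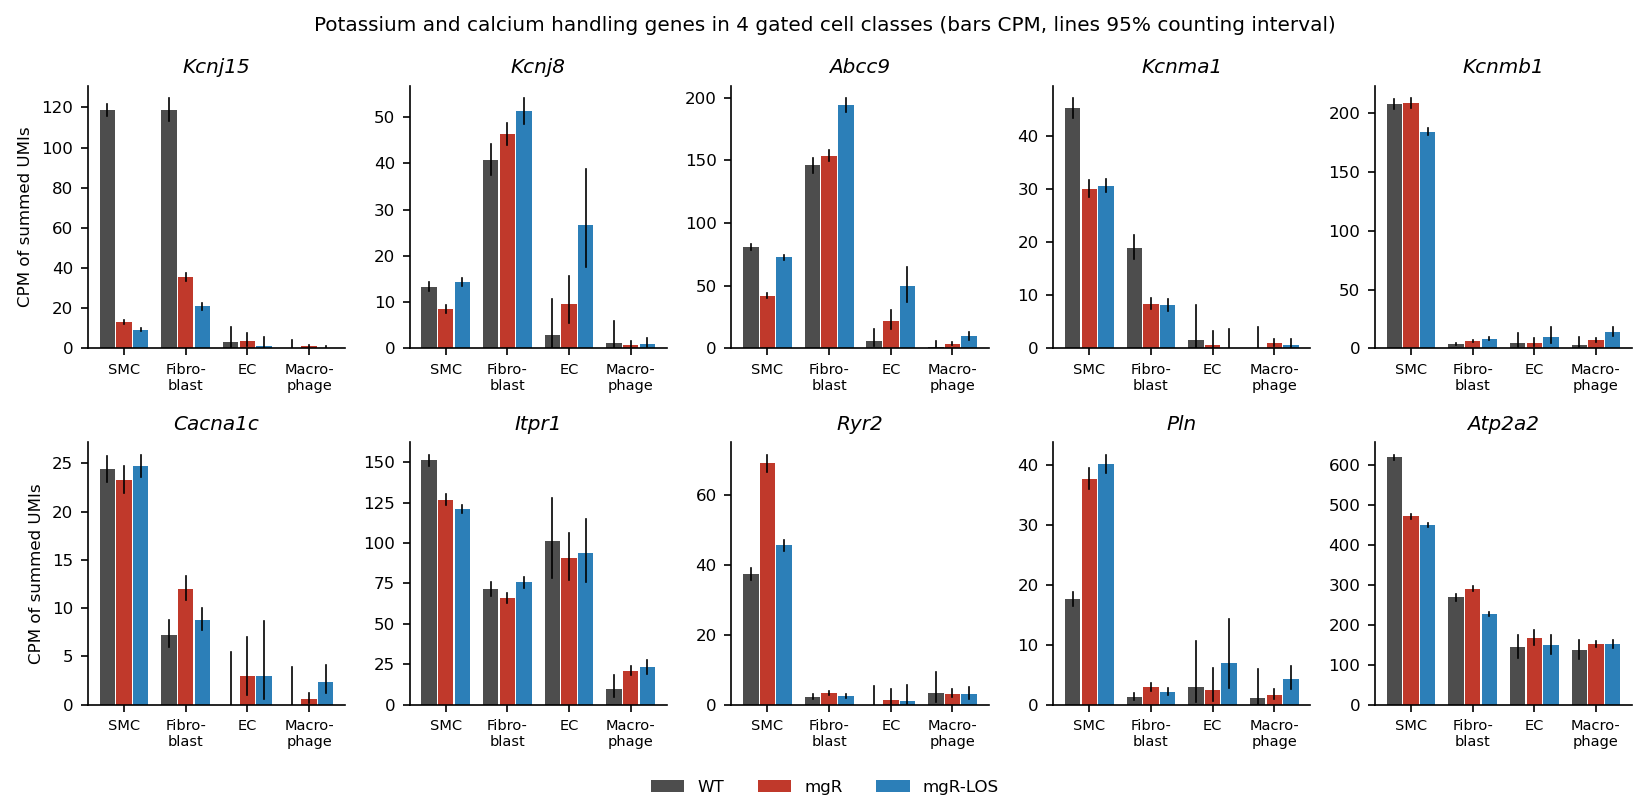
Level of each gene in CPM of summed UMIs (vertical axis, from 0 in every panel) in SMC-, fibroblast-, EC- and macrophage-gated barcodes of the WT, mgR and mgR-LOS libraries, with lines for the 95% counting interval. *Kcnj15* stood near 119 CPM in WT SMCs and WT fibroblasts alike and was lower in both mutant libraries, and *Kcnmb1*, *Ryr2* and *Pln* were seen mainly in SMCs.

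*Kcnj15* was not a gene of SMCs alone. WT fibroblasts held 118.8 CPM (113.4 to 124.5), which differed from WT SMCs by less than counting error (SMC over fibroblast 0.997, 0.946 to 1.05). In mgR fibroblasts it was at 35.5 CPM and in mgR-LOS fibroblasts at 21.0 CPM. The SMC ratio of 0.109 is the difference for which the gene was chosen, so no contrast between the classes is read from it. In fibroblasts the mgR over WT ratio was 0.299 (0.277 to 0.323). The ratio of mgR-LOS over mgR was 0.590 (0.532 to 0.654). Both fibroblast ratios are over clusters of unlike level, whose shares differed between libraries. ECs held at most 6 UMIs of the gene in any library, and macrophages at most 9.

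Clusters formed without the 10 genes showed how *Kcnj15* was distributed. Among SMC clusters with at least 50 barcodes, WT levels spanned 77.5 to 151 CPM over 8 clusters, a 1.95-fold range, whereas mgR levels spanned 0 to 31.0 CPM over 9 clusters. In mgR the level was 31.0 CPM in cluster 7, led by *Des* and *Rgs5*, and 29.1 CPM in cluster 2, led by *Tnnt2* and *Des*. These neighbors in the order did not differ beyond counting error. It was 1.61 CPM in cluster 3, led by *Acan*, *Nrgn* and *Sost*, 4.42 CPM in cluster 1, led by *Wnt16* and *Sost*, and cluster 6, led by *Spon1* and *Gpc6*, held no UMI in 133 mgR barcodes. The ratio of mgR over WT was past 1.5-fold lower in each of the 7 clusters that had 50 barcodes in both libraries. It was 0.252 (0.209 to 0.302) in cluster 2, 0.238 in cluster 7, 0.114 in cluster 0 (led by *Ptprz1* and *Igfbp2*), 0.0516 in cluster 1 and 0.0208 (0.0113 to 0.0352) in cluster 3. In cluster 6, with no mgR UMI, the upper limit of the ratio was 0.0189. The mgR-LOS library was similarly low in clusters 3 and 6, at 1.64 and 0.776 CPM, and 26.2 CPM in cluster 7. Where both libraries held UMIs, the mgR-LOS over mgR ratio ran from 0.537 to 1.02 over 7 clusters.

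**Figure D2:**
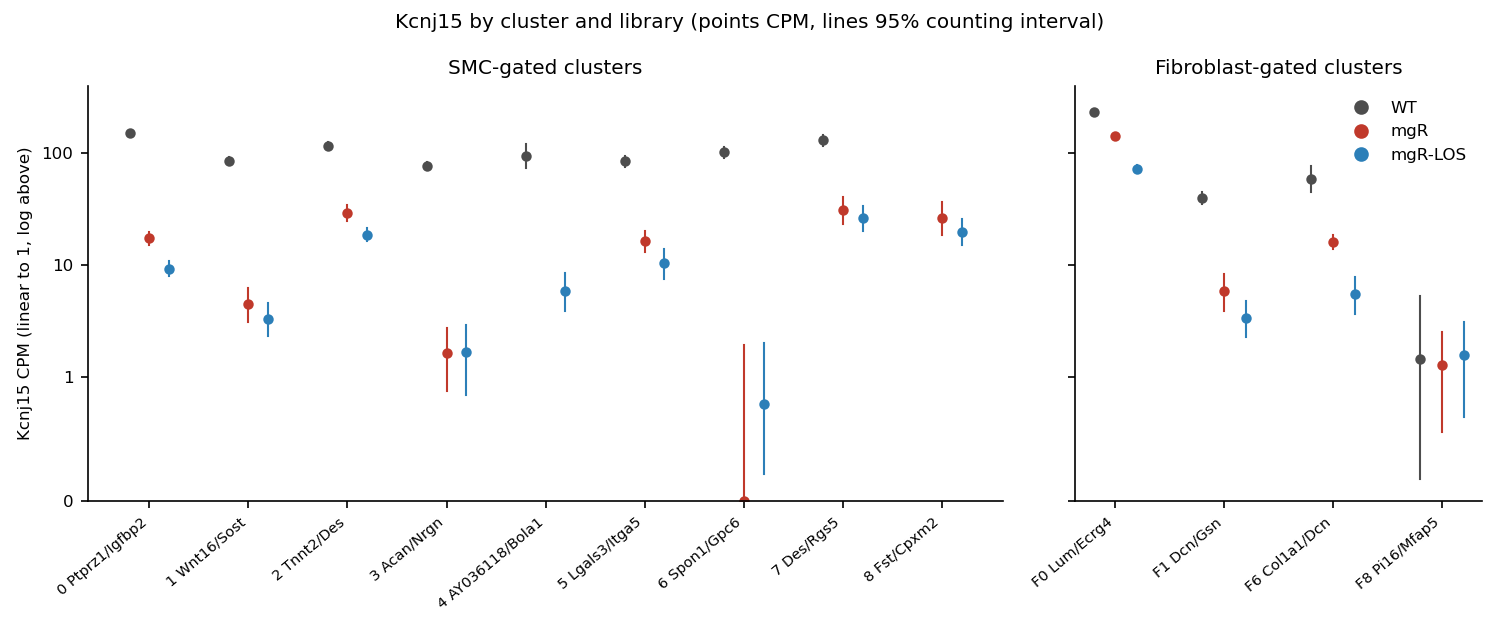
*Kcnj15* level in CPM (vertical axis, linear up to 1 and logarithmic above) in SMC-gated clusters 0 to 8 (left, numbered with 2 leading genes) and fibroblast-gated clusters (right, F with the cluster number) of each library. Points are CPM and lines the 95% counting interval, for clusters with at least 50 barcodes in a library. Cluster 10 of mgR (24.9 CPM) and cluster 9 of mgR-LOS (7.47 CPM) also had that many barcodes and are not drawn. WT points of SMC clusters sit between 77.5 and 151 CPM, while mgR points spread from 0 to 31.0 CPM.

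Fibroblasts were uneven already in WT. *Kcnj15* was at 236 CPM in 440 WT barcodes of fibroblast cluster 0, led by *Dcn*, *Lum* and *Ecrg4*, at 40.1 CPM in cluster 1, led by *Dcn* and *Gsn*, and at 1.45 CPM in cluster 8, led by *Pi16* and *Mfap5*, adventitial fibroblast genes. In cluster 0 the mgR and mgR-LOS levels were 143 and 72.4 CPM, so both mutant libraries still carried the gene there. In cluster 1 they were 5.78 and 3.35 CPM. Cluster 0 held 440 of 1337 WT and 442 of 2514 mgR fibroblasts. How far this share entered the *Kcnj15* ratio over all fibroblasts was not tested. *Kcnma1* was likewise highest in fibroblast cluster 0, at 40.7, 36.4 and 26.5 CPM in WT, mgR and mgR-LOS, and at most 4.23 CPM in the other 3 fibroblast clusters. These clusters were formed without joining the libraries, and cluster 6 held 80 WT and 840 mgR fibroblasts.

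The KATP channel genes were lower in mgR SMCs and near the WT level in the losartan library. *Abcc9* was at 81.0 CPM in WT (78.6 to 83.5), 42.1 in mgR (40.2 to 44.0) and 72.6 in mgR-LOS (70.6 to 74.6). *Kcnj8* was at 13.3 CPM (12.3 to 14.3), 8.39 (7.58 to 9.28) and 14.3 (13.4 to 15.2). For both genes the mgR interval lay below those of the other 2 libraries. The mgR over WT ratio was 0.520 (0.492 to 0.548) for *Abcc9* and 0.632 (0.556 to 0.717) for *Kcnj8*. The latter was no longer past 1.5-fold with a mitochondrial limit of 5% (0.738), with at most 4000 genes (0.694) or with the SMC gate at 1% (0.683). The mgR-LOS over mgR ratio was 1.72 (1.64 to 1.82) and 1.70 (1.51 to 1.91). These ratios share the mgR library. Against WT the losartan library stood at 0.896 (0.860 to 0.934) for *Abcc9* and 1.07 (0.972 to 1.18) for *Kcnj8*.

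The pattern of *Abcc9* was present in the SMC clusters with at least 50 barcodes in both libraries of a ratio. Its mgR over WT ratio ran from 0.408 to 0.619 over 7 clusters, and mgR-LOS over mgR from 1.33 to 2.27 over 8 clusters. Clusters 8 and 10, with 45 and 40 WT barcodes, were not among the 7. Cluster 8 held 72.6 CPM in WT and 82.9 in mgR, and cluster 10 held 17.2 and 94.7 CPM on 2 and 19 UMIs. The WT and mgR intervals overlapped in both. The level of *Abcc9* itself depended on the cluster. Cluster 2 held 25.7, 10.5 and 19.5 CPM in WT, mgR and mgR-LOS, whereas cluster 6 held 121, 61.5 and 123 CPM. *Kcnj8* was past 1.5-fold lower in mgR than in WT in 4 of 7 clusters. In cluster 6 its ratio was 1.14, with a wide interval (0.487 to 2.61) on 15 WT and 12 mgR UMIs. Cluster 8, led by *Fst*, *Cpxm2*, *Serpinf1*, *Lum* and *Rgs5*, had the most *Kcnj8* in mgR and mgR-LOS among clusters of at least 50 barcodes, 24.1 and 38.9 CPM. In WT this cluster held 12.9 CPM on 8 UMIs in 45 barcodes, with an interval that overlapped that of mgR. Of its leading genes *Serpinf1* and *Lum* belong to the fibroblast panel and *Rgs5* to the pericyte markers.

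Fibroblasts as a whole carried more of both KATP transcripts than SMCs. Fibroblast cluster 0 in WT, however, held 62.6 CPM of *Abcc9*, below the 81.0 CPM of WT SMCs. *Abcc9* was at 146, 154 and 194 CPM and *Kcnj8* at 40.7, 46.3 and 51.3 CPM in WT, mgR and mgR-LOS fibroblasts. Over all fibroblasts mgR was not below WT, with ratios of 1.05 (1.00 to 1.11) and 1.14 (1.03 to 1.25). These ratios are over fibroblast clusters of unlike level, and cluster 6 held 80 WT and 840 mgR fibroblasts. In cluster 8 mgR lay below WT, at 46.5 against 93.2 CPM for *Abcc9* and 14.0 against 44.8 for *Kcnj8*. In cluster 1 *Kcnj8* was higher in mgR, at 61.8 against 48.8 CPM. Otherwise the WT and mgR intervals overlapped within each fibroblast cluster. How far cluster shares entered the ratios was not tested. The higher *Abcc9* of mgR-LOS over mgR was not particular to SMCs, with a ratio of 1.26 (1.21 to 1.31) in fibroblasts. In ECs the ratio was 2.23 (1.43 to 3.51), on 37 and 50 UMIs in mgR and mgR-LOS. In macrophages it was 2.82 (1.76 to 4.59), on 32 and 45 UMIs. Macrophages, the measure of free RNA, held only 3.33 and 9.41 CPM of *Abcc9*, and the part of free RNA was not tested. For *Kcnj8* the ratio was 1.11 (1.03 to 1.19) in fibroblasts, 2.79 (1.45 to 5.53) in ECs and 1.15 (0.246 to 4.51) in macrophages. The *Kcnj8* ratio in ECs rested on 16 and 27 UMIs. Of the 5 pericyte markers read in SMC-gated barcodes, *Rgs5* was lowest in mgR, at 122, 45.1 and 56.5 CPM, and it made up most of the sum of 139, 71.0 and 86.8 CPM. *Cox4i2* (15.8, 23.2 and 27.4 CPM), *Ndufa4l2* (0.602, 2.29 and 2.57) and *Higd1b* (0.0971, 0.480 and 0.285) were lowest in WT, and *Vtn* was at 3 UMIs or fewer in each library. Barcodes with less than 0.1% of UMIs from these genes held 80.8, 41.7 and 72.1 CPM of *Abcc9*. The 98, 29 and 102 barcodes above that share held 126, 32 and 99 of its 4171, 1931 and 5089 UMIs. Leaving out so few UMIs could hardly move the level, and the part of pericyte-type cells in the difference was not tested. The fibroblast panel summed to 117, 148 and 221 CPM in SMC-gated barcodes, with 0 of its 6 genes at or under 3 UMIs, and its part in the losartan values was not tested.

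**Figure D3:**
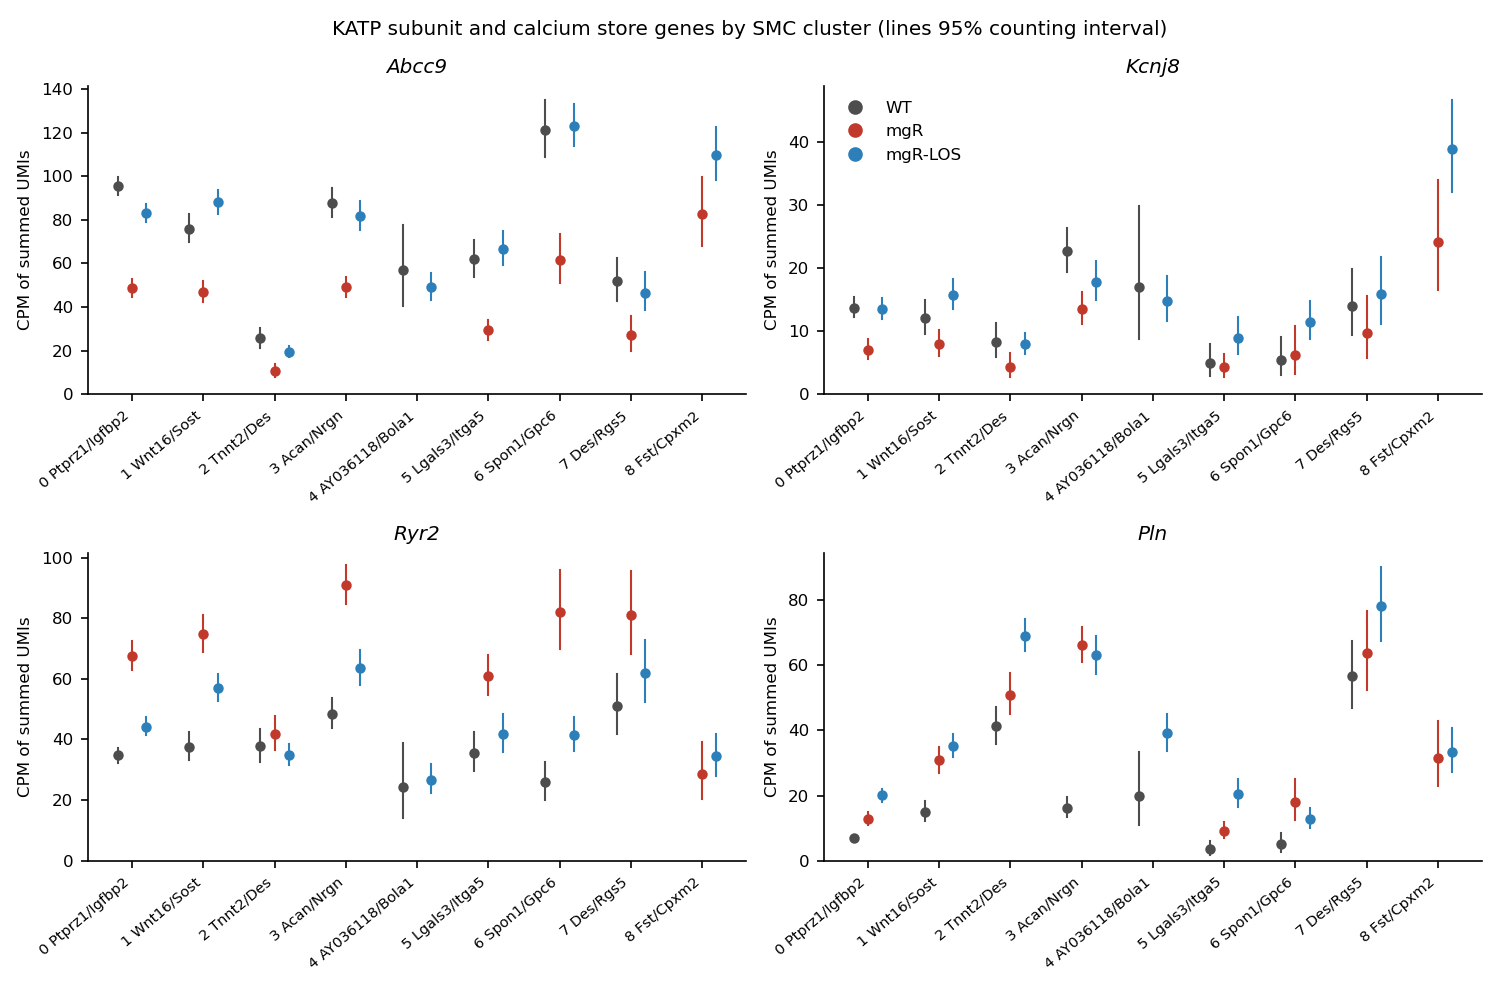
Level of *Abcc9*, *Kcnj8*, *Ryr2* and *Pln* in CPM (vertical axis, from 0) in SMC clusters 0 to 8, named by number and 2 leading genes, for WT, mgR and mgR-LOS; points are CPM, lines the 95% counting interval, and only clusters with at least 50 barcodes in a library are drawn. *Abcc9* in mgR lies below both other libraries in all 7 clusters drawn for the 3 libraries, and *Pln* is high in clusters 2 and 7 of every library.

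The BK channel genes differed from each other. *Kcnma1* (ENSMUSG00000063142, chromosome 14, 23289431 to 24014491) was at 45.1 CPM in WT SMCs (43.3 to 47.0), 30.02 in mgR and 30.6 in mgR-LOS. Both mutant libraries lay below WT and differed from each other by less than counting error (1.02, 0.953 to 1.09). Between mgR and WT the ratio was 0.665 (0.622 to 0.711), just past 1.5-fold, and ranged from 0.439 to 0.758 under other settings, and it was not past 1.5-fold in 7 of 15, such as the SMC gate doubled (0.758). *Kcnmb1* (ENSMUSG00000020155, chromosome 11, 33963013 to 33973641) was at 208 CPM in both WT and mgR and at 184 in mgR-LOS, with a mgR over WT ratio of 1.00 (0.975 to 1.03). Among the 10 genes *Kcnmb1* had the highest ratio of SMCs over fibroblasts, at 56.8-fold (43.6 to 75.5) in WT, 35.9-fold in mgR and 22.9-fold in mgR-LOS. In mgR-LOS the intervals of *Ryr2* (19.6-fold) and *Pln* (18.8-fold) overlapped its own. Fibroblasts held 3.66, 5.80 and 8.04 CPM of *Kcnmb1*, near or below the 3.19, 6.67 and 14.0 CPM in macrophages, the measure of free RNA. In fibroblasts *Kcnma1* was at 18.9, 8.30 and 8.08 CPM, a mgR over WT ratio of 0.439 (0.369 to 0.522). In fibroblast cluster 0, which held 440 of 1337 WT and 442 of 2514 mgR fibroblasts, the levels were 40.7 and 36.4 CPM. In cluster 1 they were 4.19 and 1.45 CPM, in cluster 6 they were 4.23 and 1.39, and in cluster 8 they were 1.45 and 0.318. The mgR level was the lower one in each of these clusters, with overlapping intervals. How far cluster shares entered the ratio was not tested.

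In SMCs the transcripts of *Cacna1c* and *Itpr1* were not past 1.5-fold between any 2 of the libraries. *Cacna1c* (ENSMUSG00000051331, chromosome 6, 118587240 to 119196418) was at 24.4, 23.3 and 24.7 CPM in WT, mgR and mgR-LOS SMCs, with intervals that overlapped throughout. Its ratio of mgR over WT was 0.956 (0.880 to 1.04) and that of mgR-LOS over mgR 1.06 (0.982 to 1.15). In fibroblasts, where it was lower, it stood at 7.25, 12.0 and 8.78 CPM, past 1.5-fold higher in mgR (1.66, 1.33 to 2.07). By fibroblast cluster, WT and mgR were at 2.94 and 5.58 CPM in cluster 0, 11.1 and 10.95 in cluster 1, 12.7 and 20.2 in cluster 6, with its 80 WT and 840 mgR barcodes, and 5.06 and 3.50 in cluster 8, and the intervals overlapped in each. *Itpr1* (ENSMUSG00000030102, chromosome 6, 108213096 to 108551109) was at 151, 127 and 121 CPM in SMCs, a mgR over WT ratio of 0.838 (0.810 to 0.867). ECs also carried *Itpr1*, at 101, 90.9 and 93.8 CPM.

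*Ryr2*, the ryanodine receptor known best from the heart, was higher in mgR SMCs. It lies on chromosome 13 from 11553102 to 12106945 (ENSMUSG00000021313). Its level was 37.2 CPM in WT (35.6 to 38.9), 69.0 in mgR (66.6 to 71.5) and 45.5 in mgR-LOS (44.0 to 47.1). The mgR library stood above both others, and the losartan library stood between. The ratio was 1.85 (1.75 to 1.96) for mgR over WT and 0.660 (0.628 to 0.693) for mgR-LOS over mgR. The second of these was not past 1.5-fold in 5 of 15 other settings, among them a mitochondrial limit of 5% (0.704) and equal weight for each cluster (0.719). Over 7 clusters mgR over WT ran from 1.11, in the *Tnnt2* and *Des* cluster 2, to 3.19, in cluster 6.

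*Pln* was higher in both mutant libraries and was the most uneven of the 10 genes between WT clusters. It lies on chromosome 10 from 53337667 to 53345987 (ENSMUSG00000038583) and was at 17.6 CPM in WT SMCs (16.5 to 18.8), 37.7 in mgR (35.9 to 39.5) and 40.2 in mgR-LOS (38.7 to 41.7). Its mgR over WT ratio was 2.14 (1.98 to 2.33) and that of mgR-LOS over mgR 1.07 (1.00 to 1.13). WT clusters of at least 50 barcodes ran from 3.52 CPM in cluster 5, led by *Lgals3* and *Itga5*, to 56.6 CPM in cluster 7, a 16.1-fold range. In cluster 3, rich in *Acan* and *Sost*, *Pln* was at 16.3 CPM in WT, 66.3 in mgR and 63.1 in mgR-LOS, and the ratio there was 4.08, with overlapping intervals in cluster 6 (3.56, 1.87 to 7.16) and cluster 5 (2.60, 1.37 to 5.35). Clusters 2 and 7 were at 41.2 and 56.6 CPM in WT and at 51.0 and 63.7 CPM in mgR.

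The size of the *Pln* difference depended on the mitochondrial share of the barcodes. In barcodes with at most 5% mitochondrial UMIs, 576 in WT and 886 in mgR, *Pln* was at 28.9 and 34.8 CPM, a ratio of 1.21, which is not past 1.5-fold. Among those with 5% to 10% it was at 15.6 and 39.0 CPM. A group of 14, 28 and 38 barcodes, cluster 11, led by *Corin* and *Pgam2*, held *Pln* at 646, 640 and 326 CPM. It had no *Kcnj15* UMI in any library, with upper limits of 19.2, 11.1 and 11.9 CPM. Without this group the *Pln* levels in SMCs were 15.2, 33.3 and 38.9 CPM. The 6 cardiomyocyte genes *Myh6*, *Tnni3*, *Myl7*, *Actn2*, *Nppa* and *Myl2* summed to 33.4 CPM in WT SMC-gated barcodes, 6.19 in mgR and 8.63 in mgR-LOS. None of them was at 0, and the part of cardiomyocyte RNA in the *Pln* levels was not tested.

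*Atp2a2* (ENSMUSG00000029467, chromosome 5, 122453513 to 122502225) was at 618 CPM in WT SMCs (611 to 625), 471 in mgR (465 to 477) and 450 in mgR-LOS (445 to 455). WT lay above both mutant libraries, at a ratio of 0.762 (0.749 to 0.775) that did not pass 1.5-fold. The ratio ran from 0.699 to 0.839 over 7 clusters. In fibroblasts *Atp2a2* was at 268, 289 and 227 CPM.

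In SMCs 6 of the 10 genes were past 1.5-fold between mgR and WT, against 9.07% of the 9143 genes with an average of at least 5 CPM. *Ryr2* and *Pln* were higher, against a background of 4.77%, and *Kcnj15*, *Kcnj8*, *Abcc9* and *Kcnma1* lower, against 4.3%. The genes were chosen with results of these libraries known, so nothing is read from that count. The median ratio of the 10 was 0.799, beside 0.987 over all 9143. Between mgR-LOS and mgR 3 of the 10 were past 1.5-fold, with *Kcnj8* and *Abcc9* higher (background 4.46%) and *Ryr2* lower (3.41%), against 7.87% of 9185 genes in either direction, and the median ratio was 0.987 beside 1.02. Between mgR-LOS and WT 2 were past it, *Pln* higher (background 4.81%) and *Kcnj15* lower (3.33%), against 8.14% in either direction. In fibroblasts 7 genes passed the minimum for mgR over WT, of which *Cacna1c* was past 1.5-fold higher (background 6.53%) and *Kcnj15* and *Kcnma1* lower (4.41%), against 10.9% in either direction. For mgR-LOS over mgR in fibroblasts 8 genes passed it, of which 0 were higher (3.31%) and *Kcnj15* was lower (3.55%), against 6.86%.

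**Figure D4:**
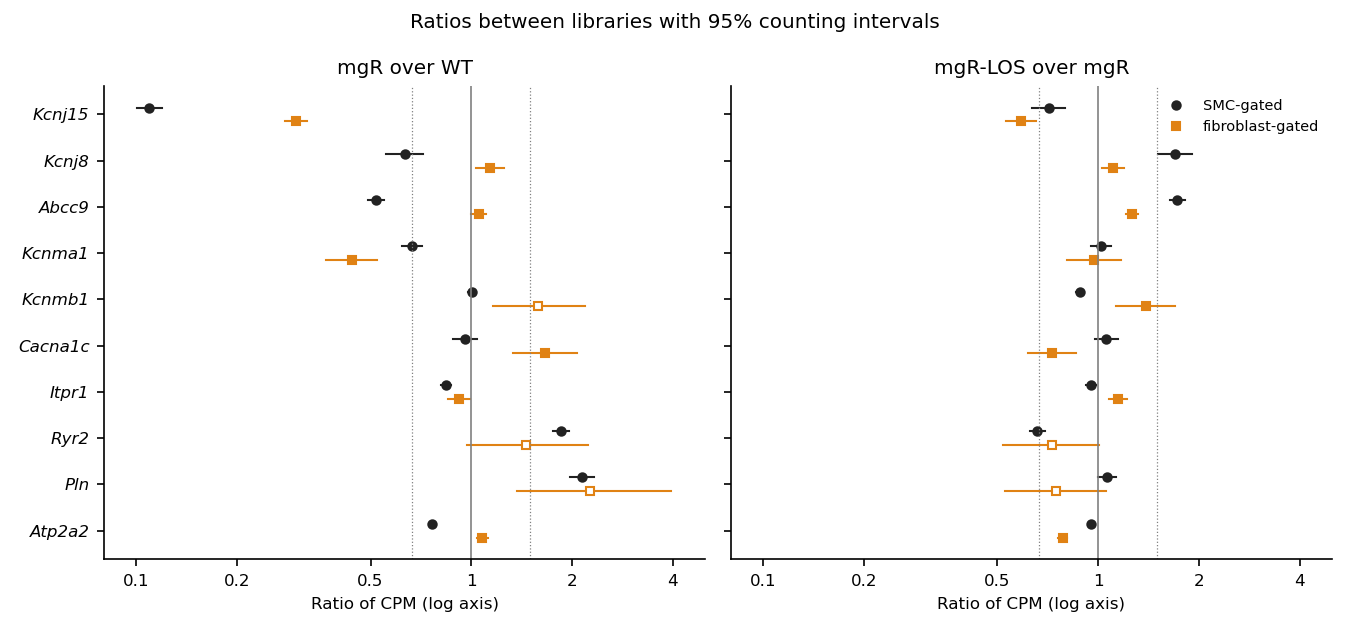
Ratio of CPM for each gene (horizontal, logarithmic axis) for mgR over WT (left) and mgR-LOS over mgR (right), in SMC-gated (black circles) and fibroblast-gated barcodes (orange squares), with lines for the 95% counting interval, dotted lines at 1.5-fold and open symbols for genes under 5 CPM on average. *Kcnj8* and *Abcc9* lie below 1 on the left and above 1 on the right in SMCs, and *Kcnj15* lies at 0.109 in SMCs and 0.299 in fibroblasts.

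Other genes of potassium and calcium handling were read from 10 lists with 136 genes in the files, of which 71 passed the minimum for mgR over WT in SMCs. Past 1.5-fold, 5 were higher and 3 lower, beside 4.77% and 4.3% of all genes tested, and the median ratio was 0.985 beside 0.987. Among the lower ones were *Casq1*, a calcium buffer of the sarcoplasmic reticulum, at 55.5 CPM in WT, 13.0 in mgR and 11.1 in mgR-LOS (ratio 0.234, 0.214 to 0.256), *Stimate*, a regulator of the store sensor STIM1, at 136, 75.0 and 77.7 CPM (0.552), and *Ppp1r12a*, the targeting subunit of myosin phosphatase, at 776, 499 and 803 CPM (0.644). The higher ones were *P2rx1*, an ATP-gated cation channel, at 9.13, 45.2 and 22.9 CPM (4.95, 4.48 to 5.49), *Piezo2*, a mechanosensitive channel (3.08), *Rem1*, a GTPase that restrains calcium channels (3.01), *Kcnk3*, the two-pore potassium channel TASK1 (2.99), and *Ano1*, a calcium-activated chloride channel (1.56). No further inward rectifier or KATP gene of the 8 in that list reached the minimum, and of 6 voltage-gated potassium channel genes that did, 0 were past 1.5-fold in either contrast.

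For mgR-LOS over mgR 70 genes of these lists passed the minimum, with 4 higher and 3 lower, beside 4.46% and 3.41% of all genes tested, and a median ratio of 1.01 beside 1.02. *P2rx1* (0.507), *Piezo2* (0.599) and *Rem1* (0.606) were lower in the losartan library. *Cacna1d*, an L-type channel gene (19.4, 13.9 and 26.2 CPM in WT, mgR and mgR-LOS, ratio 1.89), *Jph1*, a junction protein (1.81), *Ppp1r12a* (1.61) and *Kcnk3* (1.79) were higher. *Kcnk3* stood at 3.73, 11.1 and 19.9 CPM, so it was highest in the losartan library.

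Over 27 combinations of SMC cluster and library, the genes whose log2(CPM + 1) was most like that of *Kcnj15* among 9173 genes were *Mfap4* (Pearson r = 0.871), *Gxylt2* (0.844), *Bmp3* (0.841), *Myo18b* (0.819) and *Adk* (0.792). The points share libraries and depth, and the values are a description. *Mfap4*, which encodes an elastic fiber protein, was at 1063, 459 and 303 CPM in WT, mgR and mgR-LOS SMCs, and *Bmp3*, a bone morphogenetic protein, at 46.8, 8.76 and 13.8 CPM. In fibroblasts *Mfap4* was at 1614, 771 and 643 CPM, whereas *Bmp3* was at 14.3, 39.4 and 25.9 CPM, opposite in order to its SMC levels between WT and mgR.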

How the data were processed

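The authors deposited unnormalized UMI counts for every gene in each barcode, from Chromium 3' libraries aligned to GRCm38. Per the file headers these came from CellRanger 5.0.1 for WT and mgR and 6.0.1 for mgR-LOS, while the submitters' processing notes name 6.0.1 for all. Filters kept barcodes that showed 600 to 5000 genes and no more than 10% mitochondrial UMIs, after the limits in the study's methods. Doublets were not called, and barcodes passing the panels of 2 classes were left out (95, 193 and 436). Gate limits were set after the distributions of panel shares had been seen, at 2% for SMCs, 0.4% for fibroblasts and macrophages and 0.15% for ECs. Counts were summed per class and library and scaled to CPM. Exact Poisson intervals for CPM, Clopper-Pearson intervals for shares and conditional binomial intervals for ratios, all 95%, came from scipy 1.17.1, and the ratio was checked on simulated counts. SMC-gated barcodes were clustered with Seurat 5.3.0 in R 4.3.3 (libraries joined over 30 dimensions, resolution 0.5) and all barcodes with scanpy 1.11.5 (resolution 1), without the 10 genes, the list genes and *Fbn1*. Gene positions came from GENCODE M21 on GRCm38. Of the 10 genes 7 overlapped a gene on the opposite strand (*Pln* lies within *Cep85l*) and 0 on their own, and whether counting used the strand is not given in the sources used here.

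The 10 genes and all lists were chosen with earlier results of these data known. Genes are named by a rule, namely the 10 genes, list genes with the largest fold past 1.5-fold (at most 5 per direction and contrast), the 5 genes most like *Kcnj15*, panel genes as checks of gates and *Fbn1* as check of labels. Genes leading a cluster and neighbors of *Kcnj15* were named after their values had been seen. Alternatives covered the filters, the gate, the scaling, cluster weights, the fold and the minimum level, and 3 were added after seeing the data.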

Additional observations from a re-analysis of the deposited data

Results flagged for a closer look

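Between SMC-gated and fibroblast-gated barcodes, 5 ratios of mgR over WT or mgR-LOS over mgR had counting intervals on opposite sides of 1. The difference between the classes was not tested, and the share of all genes with such intervals was not counted. Nothing is therefore read from the number of these ratios. For mgR over WT these were *Kcnj8*, at 0.632 in SMCs and 1.14 in fibroblasts, *Abcc9*, at 0.520 and 1.05, and *Atp2a2*, at 0.762 and 1.08. For mgR-LOS over mgR they were *Kcnmb1*, at 0.885 and 1.39, where fibroblasts held at most 8.04 CPM, and *Itpr1*, at 0.954 and 1.15. For mgR-LOS over WT the same held for *Abcc9*, at 0.896 and 1.33, and *Kcnmb1*, at 0.887 and 2.20. The fibroblast ratios are over clusters of unlike level, whose shares differed between libraries. In fibroblast cluster 8 *Abcc9* was at 93.2 CPM in WT and 46.5 in mgR, and *Kcnj8* at 44.8 and 14.0. In cluster 1 *Kcnj8* was at 48.8 and 61.8 CPM. Otherwise the WT and mgR intervals of *Kcnj8*, *Abcc9* and *Atp2a2* overlapped within each fibroblast cluster. In fibroblasts *Kcnmb1* was at 3.66, 5.80 and 8.04 CPM in WT, mgR and mgR-LOS. Macrophages, the measure of free RNA, held 3.19, 6.67 and 14.0 CPM of it, and the part of free RNA was not tested.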

How the results depend on the processing

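No paired analysis was possible because each group was a single library. For the 10 genes in SMCs, no ratio past 1.5-fold for mgR over WT or mgR-LOS over mgR changed direction under 15 alternatives, and other contrasts, fibroblasts and list genes were not run under them. The *Kcnj15* ratio of mgR over WT, 0.109, was 0.147 with a 5% mitochondrial limit, 0.0861 with at most 4000 genes, 0.0890 with the SMC gate doubled, 0.10 in SMC-like clusters and 0.134 with SMC clusters weighted equally. With a fold of 2 in place of 1.5, 2 genes (*Pln* higher, *Kcnj15* lower) passed for mgR over WT, against 3.53% of 9143 genes. For mgR-LOS over mgR 0 passed, against 1.81% of 9185 genes. Thinned to 5000 UMIs, the share of SMCs with a *Kcnj15* UMI was 38.4% in WT, 4.22% in mgR and 3.20% in mgR-LOS, and without thinning 63.7%, 7.35% and 4.92%. Across alternatives the mgR over WT ratio spanned 0.485 to 0.567 for *Abcc9*, 0.584 to 0.738 for *Kcnj8*, 1.77 to 1.99 for *Ryr2* and 1.21 to 2.51 for *Pln*, and mgR-LOS over mgR spanned 1.55 to 1.76 for *Abcc9* and 1.52 to 1.75 for *Kcnj8*. There were no replicate libraries, and low numbers of barcodes limited the levels in ECs (89, 208 and 144 in WT, mgR and mgR-LOS) and in WT macrophages (97).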

Other observations

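Of 27 neighbors within 1 Mb of *Kcnj15*, 11 passed the minimum for mgR over WT in SMCs. *Sh3bgr* was at 640 CPM in WT and 360 in mgR (ratio 0.563, 0.553 to 0.574) and *Erg*, an ETS factor of endothelium, at 18.6 and 11.9 CPM (0.641). Both were past 1.5-fold lower, against 4.3% of all 9143 genes tested, and nothing is read from that count. Of the 7 EC panel genes in SMC-gated barcodes, *Pecam1* was at 20.2 CPM in WT and 2.09 in mgR, and the other 6 were each at or below 0.719 CPM in both. Their part in the *Erg* value was not tested. *Wrb* had a ratio of 0.678, and the other 8 lay between 0.836 and 1.03.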
